A study of Mus musculus with 2 samples.

Results

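The protocadherin alpha and gamma arrays are tandem sets of cell adhesion genes on mouse chromosome 18. Their CpGs were taken by position alone, as every deposited CpG of chromosome 18 whose start in mm9 lies from 37080000 to 37350000 (alpha) or from 37815000 to 38005000 (gamma). This gave 1043 of the 1790826 CpGs in the deposited table, 308 in the alpha array and 735 in the gamma array.

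Reduced-representation bisulfite sequencing (RRBS), in which enzyme-cut DNA is treated with bisulfite so that unmethylated cytosines read as thymine, had been carried out on mouse embryonic fibroblasts (MEFs) to compare Dnmt1+/+ with Dnmt1-/- cells. The product of Dnmt1 restores CpG methylation on the new DNA strand after each round of replication. What is called Dnmt1-/- is a reduced-function (hypomorphic) allele carried on both chromosomes, and the cells of both genotypes also lack trp53, which encodes p53. Each genotype was represented by 1 library, so each p-value below compares 2 libraries, and genotype, cell line and library cannot be told apart. CpG methylation offers no defining marker against which the fibroblast label could be checked here.

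Clustered protocadherins are homophilic cell-surface adhesion molecules, best known for giving individual neurons a surface identity by which their own branches recognise and avoid each other. Each large variable exon has its own promoter and encodes the extracellular domains, the transmembrane segment and the start of the cytoplasmic tail of an isoform, and it is spliced to a small set of constant exons that encode the rest of the tail for the whole array. The alpha array holds Pcdha1 to Pcdha12, the gamma array holds interspersed genes of the Pcdhga (A) and Pcdhgb (B) types, and each ends in C-type genes (Pcdhac1 and Pcdhac2, and Pcdhgc3, Pcdhgc4 and Pcdhgc5), which diverge in sequence from the others. DNA methylation of the variable exon promoters is known to accompany the choice of which isoform a neuron uses.

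A median of 32 calls in Dnmt1+/+ and of 33 in Dnmt1-/- MEFs lay behind each of the 1043 CpGs, with at least 10 calls everywhere. At those depths, 0 methylated calls allow a level of up to 9.38% and 9.09%, counting error alone considered. Of the 1043 CpGs, 358 lay in CCGG or TCGA, the recognition sequences of MspI and TaqI. Their values differed from those of neighbouring CpGs. In the Pcdhgc3 exon the 15 CpGs in such sites averaged 49.0% and 49.1%, beside 2.18% and 1.23% for the 58 other CpGs of the same exon. Between the alpha exons such CpGs were at 78.3% in Dnmt1+/+ MEFs beside 90.5% outside the sites, and in Dnmt1-/- MEFs at 51.7% beside 19.1%. Over the whole alpha array, CpGs in the sites averaged 51.6% in Dnmt1-/- MEFs, beside 6.63% outside them. The values below therefore come from the 685 CpGs outside these sites, 189 in the alpha and 496 in the gamma array, unless all CpGs are named.

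The 2 arrays hold 36 variable exons, 14 alpha and 22 gamma, and the libraries covered 812 of the 3709 CpGs in them (21.9%). Pcdha5, Pcdha6 and Pcdhga6 had no measured CpG. Coverage was uneven, at 56.9% of the CpGs in the Pcdhac1 exon and 3.33% in the Pcdha7 exon, so that a mean stands for the measured stretches of an exon and not for the whole of it.

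Outside the sites, methylation of the alpha array was nearly absent in Dnmt1-/- MEFs, whereas the gamma array held much of its methylation. The mean over the alpha array was 57.1% in Dnmt1+/+ and 6.63% in Dnmt1-/- MEFs, and over the gamma array 66.9% and 40.8%. The Dnmt1-/- mean was thus 11.6% of the Dnmt1+/+ mean in the alpha array and 61.0% in the gamma array. The same share, called retention here, was 8.28% over 167 CpGs in exons of the beta array, which lies between them, 43.1% over exonic CpGs outside the arrays and 33.6% over the whole table. With all CpGs, the sites included, retention was 36.7% in the alpha array and 66.9% in the gamma array. In the sites alone it was 65.8% over 119 alpha CpGs and 76.7% over 239 gamma CpGs, so the gap was much smaller there. Whether the arrays differ was not tested, because each is a single stretch of the genome in 1 library per genotype.

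**Figure D1:**
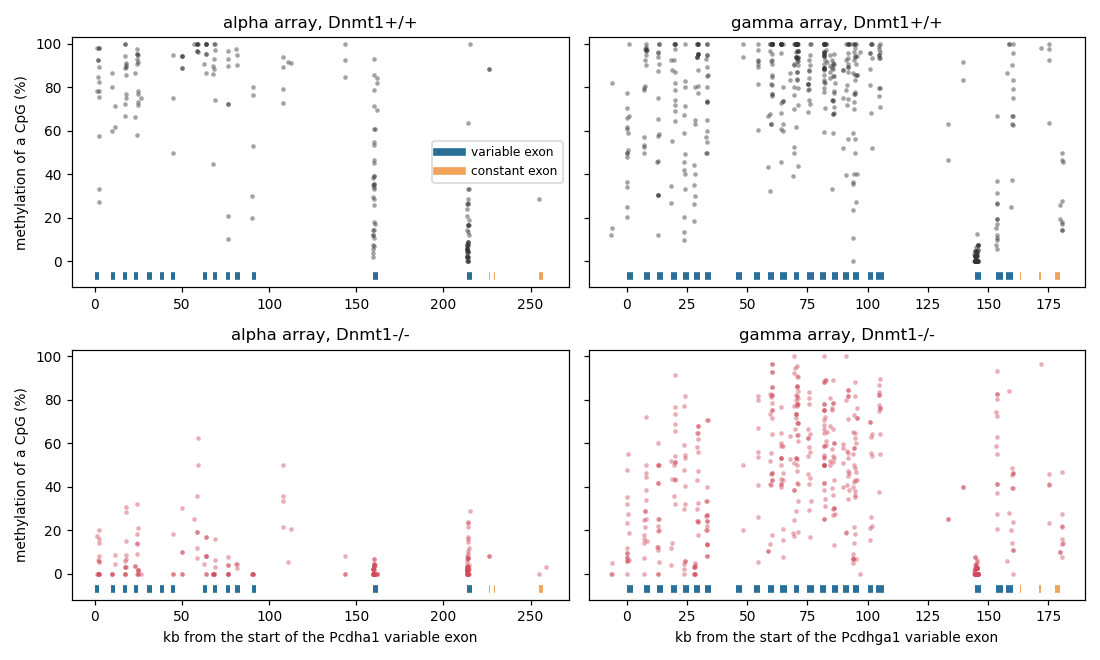
Methylation (%, vertical axis) of each CpG outside CCGG and TCGA against distance in kb from the start of the first variable exon (horizontal axis), for the alpha array (left) and gamma array (right) in Dnmt1+/+ (top) and Dnmt1-/- MEFs (bottom). Blue bars are variable exons and orange bars constant exons. In Dnmt1-/- MEFs 90.5% of the alpha CpGs and 30.6% of the gamma CpGs lie at or below 20%.

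Single CpGs were compared with two-sided Fisher's exact tests on their methylated and unmethylated calls, adjusted by the Benjamini-Hochberg method over all 1790826 CpGs. At an adjusted p under 0.05, 138 of the 189 alpha CpGs were lower in Dnmt1-/- MEFs, beside a background of 44.2% lower among the 996064 CpGs of the table outside CCGG and TCGA, and 0 were higher. In the gamma array 231 of 496 CpGs (46.6%) were lower, close to that background. Another 10 gamma CpGs were higher, all of them in the Pcdhgc4 exon, beside a background of 0.635% higher. With all 1043 CpGs, 525 were lower and 14 higher, beside 43.7% and 0.462% of the whole table.

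In Dnmt1+/+ MEFs 26.5% of the alpha and 17.1% of the gamma CpGs were at 20% or less, and 40.2% and 50.8% were at 80% or more. In Dnmt1-/- MEFs 90.5% of the alpha CpGs were at 20% or less and 0 were at 80% or more. The gamma array then had 30.6% of its CpGs at 20% or less and 11.3% at 80% or more. In Dnmt1-/- MEFs 73 alpha CpGs had no methylated call, beside 54 of the more numerous gamma CpGs.

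Variable exons followed their array. The 137 CpGs of the alpha variable exons averaged 59.5% in Dnmt1+/+ (95% Wilson interval of the 5538 pooled calls, 56.7% to 59.3%) and 5.42% in Dnmt1-/- MEFs (4.92% to 6.16%, 5178 calls). Of these CpGs 104 (75.9%) were lower, beside the background of 44.2%. The 439 CpGs of the gamma variable exons averaged 68.4% (66.5% to 68.0%, 15416 calls) and 42.6% (41.2% to 42.7%, 15244 calls), with 206 (46.9%) lower and 10 (2.28%) higher. A mean counts each CpG once, whereas its interval weights CpGs by depth, so a mean can fall outside. The intervals cover counting error only, and neighbouring CpGs share reads, which makes them too narrow.

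The constant exons could hardly be compared with the variable exons, because few of their CpGs were measured. The alpha constant exons hold 3, 1 and 35 CpGs, and 3 of these were measured outside CCGG and TCGA. Both CpGs in the first constant exon (37315833 and 37315846) read 88.5% in Dnmt1+/+ (26 calls each) and 8.33% in Dnmt1-/- MEFs (24 calls each), with an adjusted p of 1.09e-07 by Fisher's exact test. With equal depths and values in both libraries, these CpGs may come from the same reads and are not separate measurements. The CpG in the coding part of the last constant exon (37344670) read 28.6% of 42 calls and 0 of 62 calls (adjusted p = 3.36e-05, Fisher's exact test). All 3 were lower in Dnmt1-/- MEFs.

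The mean of these 3 CpGs was 68.5% in Dnmt1+/+ MEFs (pooled interval 51.6% to 70.9%) and 5.56% in Dnmt1-/- MEFs (1.42% to 8.98%). The mean of the alpha variable exons minus that of the constant exons was therefore -8.96 percentage points in Dnmt1+/+ and -0.14 points in Dnmt1-/- MEFs. The first of these differences was -3.67 points with pooled calls and -15.2 points with all CpGs. The second changed sign, to 0.26 points, at CpGs of at least 20 calls and, to 1.87 points, with pooled calls. With all CpGs the second was -21.2 points, as the 10 constant exon CpGs then counted averaged 40.9% in Dnmt1-/- MEFs and the variable exons 19.7%. In the gamma array 1 constant exon CpG was measured, in a site of the last exon, at 35.5% of 31 calls and 13.3% of 30 calls, so the comparison could not be made outside the sites.

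Each of the 12 alpha variable exons with measured CpGs had a Dnmt1-/- mean of 8.65% or less, whatever its Dnmt1+/+ level. With CpGs in CCGG and TCGA included, these means ran from 11.1% (Pcdha10) to 24.6% (Pcdha2). Among Pcdha1 to Pcdha12, the 8 exons with at least 5 CpGs ranged from 51.9% to 96.0% in Dnmt1+/+ MEFs (median 80.5%) and from 0 to 8.65% in Dnmt1-/- MEFs (median 4.76%). Over all 80 measured CpGs of these genes the means were 80.04% and 5.80%, and 76 of the 80 were lower. Every one of the 80 had a lower percentage in Dnmt1-/- than in Dnmt1+/+ MEFs.

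**Figure D2:**
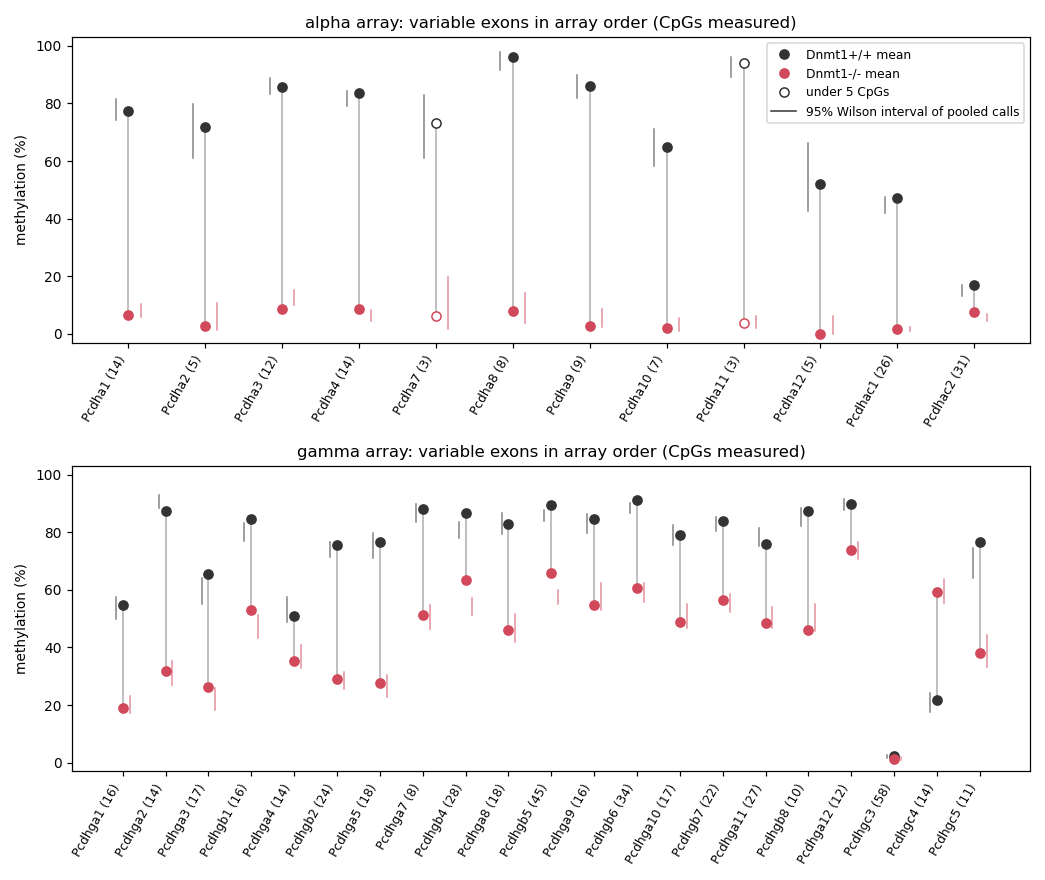
Mean methylation (%, vertical axis) of the CpGs outside CCGG and TCGA of each variable exon in array order, in Dnmt1+/+ (grey) and Dnmt1-/- MEFs (red), with the number of CpGs in brackets. Vertical bars beside the points are 95% Wilson intervals of the pooled calls, and open points have under 5 CpGs. The red points lie at 8.65% or less along the alpha array and from 18.9% to 73.8% over the Pcdhga and Pcdhgb exons, and Pcdhgc4 has its red point above its grey point.

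Among alpha exons with at least 5 CpGs, Pcdha8 (37152121 to 37154511) had the largest difference, with 8 CpGs at 96.0% in Dnmt1+/+ (range 86.4% to 100%) and 7.84% in Dnmt1-/- MEFs (0 to 16.7%). Pcdha9 (37157534 to 37160014) followed with 86.0% and 2.87% over 9 CpGs, and Pcdha3 (37105801 to 37108230) with 85.9% and 8.65% over 12. In these 3 exons each measured CpG was lower by the test. Pcdha3 and Pcdha4 had the highest Dnmt1-/- means of the alpha exons, and Pcdha4 (37112420 to 37114804) stood at 83.6% and 8.63% over 14 CpGs. The intervals of their pooled Dnmt1-/- calls, 10.02% to 15.3% and 4.58% to 8.26%, did not overlap although the means were alike, since the pooled calls give more weight to deeper CpGs.

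At the low end, the 5 CpGs of Pcdha12 (37179884 to 37182277) read from 20% to 80% in Dnmt1+/+ MEFs and 0 of 58 calls were methylated in Dnmt1-/- MEFs (interval 0 to 6.21%). Pcdha10 (37164974 to 37167355) averaged 65.0% and 2.20% over 7 CpGs, of which 5 were lower. Of its 7 CpGs 4 lay in stretches that occur more than once among the arrays after bisulfite conversion, and without them the difference of -62.8 points became -33.2. Pcdha2 stood at 72.0% and 2.61% over 5 CpGs and Pcdha1 at 77.5% and 6.65% over 14, and each of these CpGs was lower. Pcdha7 and Pcdha11 had 3 CpGs each, all lower, at 73.3% and 6.06% and at 94.2% and 3.76%.

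The alpha CpGs with the largest single differences went from fully methylated to no methylated call. In the Pcdha3 exon the CpG at 37107264 had 18 of 18 methylated calls in Dnmt1+/+ and 0 of 34 in Dnmt1-/- MEFs (adjusted p = 5.85e-13, Fisher's exact test). In the Pcdha9 exon the CpG at 37158025 had 29 of 29 and 0 of 10 (adjusted p = 1.77e-08, Fisher's exact test). Between the Pcdha12 and Pcdhac1 exons the CpG at 37233632 had 13 of 13 and 0 of 25 (adjusted p = 2.47e-09, Fisher's exact test). These were the only 3 alpha CpGs at 100% and 0.

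The C-type exons of the alpha array were less methylated in Dnmt1+/+ MEFs than Pcdha1 to Pcdha12. Pcdhac1 (37249790 to 37252225) averaged 47.1% over 26 CpGs (range 7.14% to 92.9%) in Dnmt1+/+ and 1.77% (0 to 6.90%) in Dnmt1-/- MEFs, with 21 CpGs lower. Its Dnmt1+/+ level was higher farther into the exon. The 10 CpGs before the start codon averaged 15.95%, the 18 in the first 500 bases after it 40.3%, and the 8 farther in 62.5%. The same groups averaged 0.92%, 1.57% and 2.22% in Dnmt1-/- MEFs, so this gradient was nearly gone.

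Pcdhac2 (37303623 to 37306184) was low in both libraries. Its 31 CpGs averaged 17.05% (0 to 100%) in Dnmt1+/+ and 7.48% (0 to 28.6%) in Dnmt1-/- MEFs, and 7 were lower. The 15 CpGs before its start codon, which lie after the gene start given by RefSeq's spacing, averaged 7.05% and 1.83%. It retained 43.9% of its Dnmt1+/+ mean, beside at most 10.3% for the other alpha exons with 5 or more CpGs. This share rests on a low Dnmt1+/+ mean, and the Dnmt1-/- mean of Pcdhac2 lay below the highest of the alpha exons, 8.65%. At the 21 CpGs with at least 20 calls in both libraries its difference was -12.5 points, beside -9.57 over all 31.

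**Figure D3:**
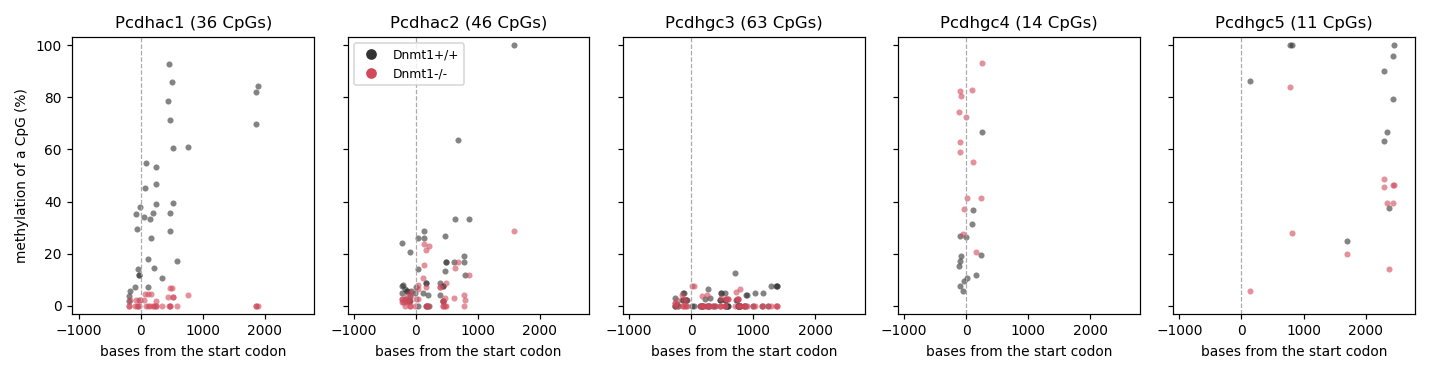
Methylation (%, vertical axis) of each CpG outside CCGG and TCGA in the 5 C-type variable exons and the 1000 bases before them, against its distance in bases from the start codon (dashed line), in Dnmt1+/+ (grey) and Dnmt1-/- MEFs (red). Pcdhac1 goes from an inward gradient to values of 6.90% or less, Pcdhgc3 lies near 0 in both, and in Pcdhgc4 all 14 red points lie above the grey points of the same CpGs.

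Gamma A and B exons covered much the same range as the alpha exons in Dnmt1+/+ MEFs and were intermediate in Dnmt1-/- MEFs. The 18 measured exons ranged from 51.1% to 91.0% (median 84.2%) in Dnmt1+/+ and from 18.9% to 73.8% (median 48.6%) in Dnmt1-/- MEFs. None of them reached down to the highest Dnmt1-/- mean of the alpha exons, 8.65%. Retention ran from 34.5% to 82.3% over these exons and from 0 to 10.3% over the 8 exons of Pcdha1 to Pcdha12, so the ranges did not overlap. Of the 356 CpGs 200 (56.2%) were lower and 0 higher by the test, beside backgrounds of 44.2% and 0.635%. A lower percentage in Dnmt1-/- MEFs was found at 335. CpGs at 80% or more in Dnmt1+/+ MEFs made up 63.2% of the 356, beside 37.9% of the table outside CCGG and TCGA. Shares at like Dnmt1+/+ levels are given below.

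Gamma B exons had higher means than gamma A exons in both libraries. The 179 CpGs of the 7 B exons averaged 86.2% and 56.2%, and the 177 CpGs of the 11 measured A exons 75.3% and 41.3%. Over single exons the types overlapped, at 29.2% to 65.9% for B and 18.9% to 73.8% for A in Dnmt1-/- MEFs.

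Among the A and B exons, Pcdhga12 (37925234 to 37928194), the last of them in the array, had the highest Dnmt1-/- mean. Its 12 CpGs averaged 89.7% (range 70.9% to 100%) in Dnmt1+/+ and 73.8% (37.3% to 89.6%) in Dnmt1-/- MEFs, and 7 were lower. All 12 had 79 calls in Dnmt1+/+ and 67 in Dnmt1-/- MEFs and may share reads. With the sites included, 9.09% of the exon's CpGs were measured. Pcdhgb5 (37890808 to 37893252) averaged 89.4% and 65.9% over 45 CpGs with 19 lower, and 24 of the 45 lay in repeated stretches. Pcdhgb4 (37880208 to 37882589) averaged 86.5% and 63.3% over 28 CpGs with 10 lower. For the last 2 the pooled Dnmt1-/- intervals, 55.2% to 60% and 51.1% to 57.3%, lay below the means, since their deeper CpGs read lower. Pcdhgb5, Pcdhgb6 and Pcdhgb7 held the 3 gamma CpGs that were at 100% in Dnmt1-/- MEFs, each of them also at 100% in Dnmt1+/+ MEFs and each at a depth of 10 to 21 calls.

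The lowest Dnmt1-/- means of the A and B exons were found among the first 7 genes of the array. Pcdhga1 (37821599 to 37824028), the first gene of the array, averaged 54.8% over 16 CpGs (range 20.5% to 100%) in Dnmt1+/+ and 18.9% (0 to 55.0%) in Dnmt1-/- MEFs, with 11 lower. Pcdhga3 (37833989 to 37836561) averaged 65.6% and 26.2% over 17 CpGs with 9 lower, and Pcdhga5 (37854155 to 37856596) 76.7% and 27.6% over 18 CpGs with 14 lower. The largest differences were those of Pcdhga2 (37828759 to 37831221), at 87.5% and 31.7% over 14 CpGs with 13 lower, of Pcdhga5, and of Pcdhgb2 (37849612 to 37852053), at 75.4% and 29.2% over 24 CpGs with 23 lower. Pcdhga4 (37845054 to 37847489), among these genes in position, had the smallest difference of the A and B exons, at 51.1% and 35.3% over 14 CpGs with 5 lower, a difference of -15.8 points beside -15.9 in Pcdhga12.

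Split at the unmeasured Pcdhga6 exon, a division made after the values were seen, the 7 exons before it had Dnmt1-/- means of 18.9% to 52.9% (median 29.2%) and the 11 after it 45.9% to 73.8% (median 54.8%). Their Dnmt1+/+ means were 51.1% to 87.5% (median 75.4%) and 75.8% to 91.0% (median 86.5%). Across the 18 exons the Dnmt1-/- mean correlated with order in the array (Pearson's r = 0.73, Spearman's rho = 0.64), with the Dnmt1+/+ mean (r = 0.72, rho = 0.75) and with CpGs per 100 bases of exon (r = 0.70, rho = 0.64), but little with the median depth in Dnmt1-/- MEFs (r = 0.15, rho = 0.15). The points are neighbouring exons of 1 library and are given as a description. Over the 8 alpha exons the correlation with CpGs per 100 bases was r = -0.26 (rho = -0.21) and with the Dnmt1+/+ mean r = 0.79 (rho = 0.74). In these alpha exons the correlation with order in the array was negative, at r = -0.60 (rho = -0.55), and that with the median depth in Dnmt1-/- MEFs was r = 0.70 (rho = 0.70). The part of depth in these values was not tested.

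Among single gamma CpGs, the largest difference was at 37918552, after the Pcdhga11 exon, with 48 of 50 methylated calls in Dnmt1+/+ and 0 of 68 in Dnmt1-/- MEFs (adjusted p = 5.83e-29, Fisher's exact test). In the Pcdhga1 exon the CpG at 37822491 had 30 of 30 and 1 of 16 (adjusted p = 4.80e-10, Fisher's exact test). In the Pcdhga3 exon the CpG at 37835073 had 10 of 11 and 1 of 18 (adjusted p = 3.05e-05, Fisher's exact test). The gamma array had no CpG that went from 100% to 0.

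The 3 gamma C-type exons, which are neighbours, differed from each other in direction. Pcdhgc3 (37966064 to 37968631) was unmethylated in both libraries, at 2.18% (range 0 to 12.5%) and 1.23% (0 to 7.69%) over 58 CpGs, and no CpG was called in either direction. It was the only 1 of the 33 measured variable exons in which the pooled intervals of the libraries overlapped, at 1.51% to 2.77% and 0.93% to 1.99%. The 5 CpGs upstream of it averaged 0.78% and 0.98%. Its density of 5.80 CpGs per 100 bases was the highest of the 36 exons.

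Pcdhgc4 (37974733 to 37977637) was the only measured variable exon with a higher mean in Dnmt1-/- MEFs. Its 14 CpGs averaged 21.8% in Dnmt1+/+ (pooled interval 17.7% to 24.2%, 592 calls) and 59.3% in Dnmt1-/- MEFs (55.5% to 63.6%, 560 calls). All 14 were higher in Dnmt1-/- MEFs, 10 of them past the test. The CpG at 37975096, 91 bases before the start codon, went from 10 of 52 to 41 of 51 methylated calls (adjusted p = 4.26e-09, Fisher's exact test). The CpGs at 37975074 and 37975094 went from 8 of 52 to 38 of 51 and from 14 of 52 to 42 of 51 (adjusted p = 1.20e-08 and 1.33e-07, Fisher's exact test).

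The gain in Pcdhgc4 was seen around the start codon, the stretch of the exon that was covered. The 7 CpGs from 113 to 29 bases before it averaged 14.6% and 60.5%, and all 7 had 52 and 51 calls. The 4 CpGs from -3 to 102 bases averaged 26.3% of 19 calls each and 62.9% of 29 calls each, with 2 higher. The 3 CpGs from 152 to 251 bases averaged 32.8% and 51.7%, with 1 higher. Runs of CpGs with equal depth lie close enough to share reads, so the 14 CpGs are not 14 separate measurements.

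Pcdhgc5 (37979200 to 37981788), the next exon, averaged 76.7% over 11 CpGs (range 25% to 100%) in Dnmt1+/+ and 38.0% (5.88% to 84.0%) in Dnmt1-/- MEFs, with 6 lower. Both means lay within the ranges of the A and B exons. Over all 5 C-type exons of both arrays, the 140 CpGs averaged 21.6% and 11.4%, with 34 (24.3%) lower and 10 (7.14%) higher.

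Within the exons, means were also taken by distance from the start codon. In the A and B exons the first 500 bases averaged 65.0% in Dnmt1+/+ and 37.6% in Dnmt1-/- MEFs over 93 CpGs of 14 exons. From 1500 bases to just under 2000 the means were 89.8% and 62.3% over 106 CpGs of 9 exons. The 28 CpGs within 1000 bases before the start codon averaged 63.8% and 36.6%. In Pcdha1 to Pcdha12 the same 2 windows had 69.3% and 0.54% (8 CpGs of 3 exons), and 88.5% and 11.8% (16 CpGs of 5 exons). The windows hold different exons, as coverage allowed, and in the A and B exons the later of the 2 windows is mostly B type, with 99 of 106 CpGs. Taken by type, the B exons had Dnmt1-/- means of 33.8% in the first 500 bases and 62.8% in the later window. The A exons had 39.1%, 42.3% and 39.1% over the first 3 windows of 500 bases, with retention of 60.6%, 52.2% and 43.9%, and 55.4% over the 7 CpGs of the later window.

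**Figure D4:**
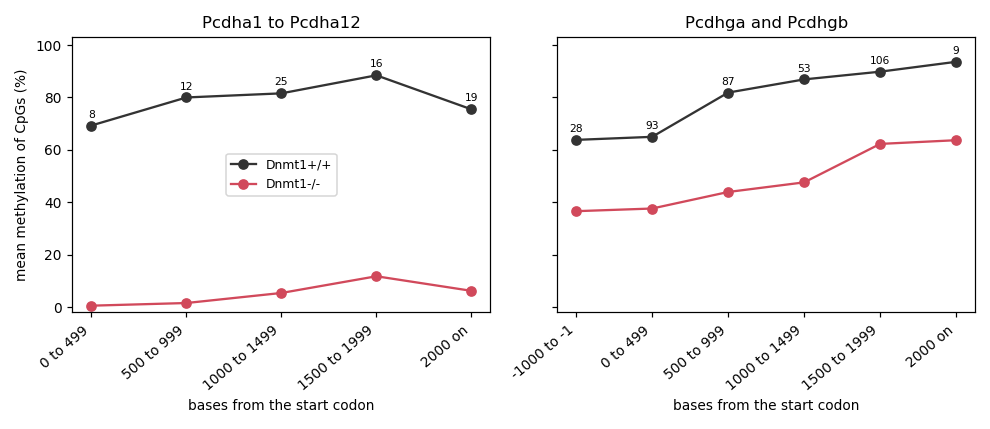
Mean methylation (%, vertical axis) of CpGs in windows of distance in bases from the start codon, for Pcdha1 to Pcdha12 (left) and the gamma A and B genes (right), in Dnmt1+/+ (grey) and Dnmt1-/- MEFs (red), with the number of CpGs above the grey points. The red line goes from 0.54% to 11.8% and then 6.21% at the left, and from 36.6% to 63.7% at the right.

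In the 1000 bases before the start of each variable exon as bounded here, called upstream, the CpGs measured in the arrays belonged to genes of different types. Where the bound is the start codon, this window takes in the 5′ untranslated part of the exon. By the spacing of the RefSeq gene starts, 26 of the 50 upstream CpGs lie inside the transcribed gene. They are all 15 of Pcdhac2 and all those of Pcdhga2, Pcdhgb1, Pcdhgb4 and Pcdhgb5, with 4 of the 8 of Pcdhga10. Pooled over the arrays, these 26 CpGs averaged 28.0% and 13.9%, and the 24 before the RefSeq starts 29.7% and 15.0%. The arrays differed in opposite directions in Dnmt1+/+ MEFs. In alpha the 15 inside the gene, all of Pcdhac2, averaged 7.05%, and the 10 before it, all of Pcdhac1, 15.95%. In gamma the 11 inside averaged 56.6% and the 14 before 39.5%. The Dnmt1-/- mean was higher inside the gene in both arrays. The part of position in these values was not tested. All 25 alpha CpGs of the window lay before Pcdhac1 and Pcdhac2 and averaged 10.6% and 1.47%, with 7 lower, and with CpGs in the sites included the means were 21.3% and 11.8%. The 25 gamma CpGs averaged 47.0% and 27.3%, with 11 lower. Retention differed between the genes. The 8 CpGs before Pcdhga10 were at 80.6% and 62.2% (retention 77.2%) and the 5 before Pcdhga11 at 38.6% and 19.03% (49.3%), and the 1 before Pcdhgb5 at 39.3% and 18.8% (47.7%). Lower shares were kept before Pcdhga2, at 63.1% and 13.5% over 3 CpGs (21.3%), before Pcdhgb1, at 30.8% and 8% over 2 (26%), and before Pcdhgb4, at 43.5% and 10.3% at 1 CpG (23.7%). The window held no CpG of Pcdha1 to Pcdha12 outside the sites.

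Between the exons, the 24 alpha CpGs averaged 90.5% in Dnmt1+/+ and 19.1% in Dnmt1-/- MEFs, and all 24 were lower. This Dnmt1-/- mean was above that of the alpha variable exons, 5.42%. The 13 CpGs between the Pcdha7 and Pcdha8 exons averaged 96.2% and 21.6%, and 8 of them lay in repeated stretches. The CpG at 37149168, among the 13, had the highest Dnmt1-/- value of the alpha array, 62.5% of 24 calls, from 96.0% of 25. The 32 gamma CpGs between exons averaged 61.3% and 27.1%, with 14 lower, and 19 of them lay beyond the Pcdhgc5 exon, at 53.6% and 25.3%.

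Because the Dnmt1+/+ levels of the arrays differed, the Dnmt1-/- levels were also compared among CpGs of like Dnmt1+/+ level. Of the CpGs at 80% or more in Dnmt1+/+ MEFs, the 54 in alpha variable exons averaged 8.02% in Dnmt1-/- MEFs and the 231 in gamma variable exons 58.5%. The beta exons, at 7.36% over 96 CpGs, were close to the alpha exons, and the other exons of the table, at 39.9% over 81279 CpGs, lay between. All 54 alpha CpGs of this class were lower by the test, beside 141 of the 231 gamma CpGs (61.0%) and 85.3% in other exons. For CpGs over 20% and under 80% in Dnmt1+/+ MEFs the Dnmt1-/- means were 3.60% in alpha, 5.33% in beta, 33.4% in gamma and 17.99% in other exons.

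**Figure D5:**
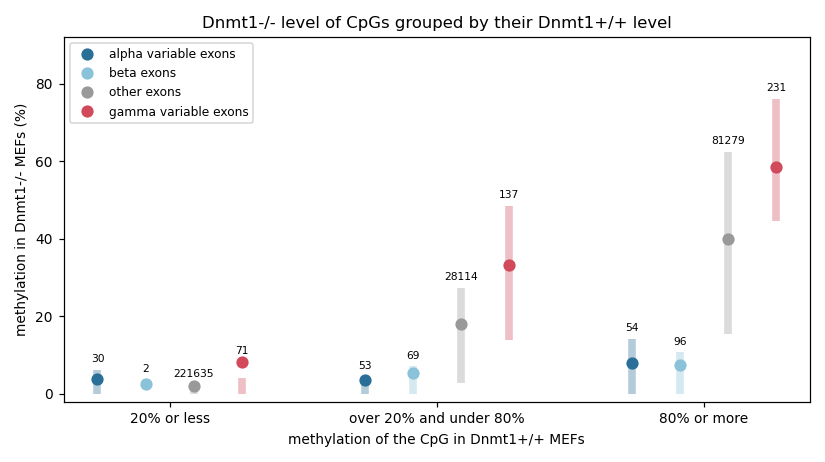
Methylation in Dnmt1-/- MEFs (%, vertical axis) of CpGs grouped by their methylation in Dnmt1+/+ MEFs (horizontal axis), for alpha variable exons, beta exons, other exons outside the arrays and gamma variable exons. Points are means, bars run from the lower to the upper quartile and numbers count CpGs. In the class of 80% or more the alpha mean is 8.02% and the gamma mean 58.5%.

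The gap between the arrays was present at each local CpG density. Of the CpGs at 80% or more in Dnmt1+/+ MEFs, gamma CpGs with 1 to 8, 9 to 16 and at least 17 CpGs within 100 bases to either side, the CpG itself counted, averaged 50.1%, 56.5% and 67.2% in Dnmt1-/- MEFs. Alpha CpGs averaged 7.55%, 8.91% and 6.41% in the same classes. Other exons of the table averaged 35.9%, 44.0% and 50.4%. Beta exons averaged 5.61%, 8.94% and 1.02% over 36, 56 and 4 CpGs. The increase with density was therefore seen in gamma and other exons. It was not seen in beta exons or in the 17, 27 and 10 alpha CpGs of these classes, and the difference in trend was not tested. Over all their measured CpGs, gamma B exons had a median of 17 CpGs in this window and gamma A exons 10. Density and type were not separated in the gamma array. The densest class held 84 of the 231 gamma CpGs and 10 of the 54 alpha CpGs.

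An antisense gene overlaps part of the gamma array. Gm16882, a long intergenic non-coding RNA gene annotated on the opposite strand from 37906213 to 37927896, spans the exons from Pcdhga10 to Pcdhgb8 and part of Pcdhga12. Its 98 CpGs averaged 79.2% and 51.7%, within the range of the A and B exons outside it, with 56 (57.1%) lower. In the alpha array the 3 CpGs in Gm10545, a predicted gene on the opposite strand, are those of Pcdha11.

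At the bounds of the regions, all CpGs counted, the last CpG before the alpha array (37055135) was at 93.3% and 73.3%, and the first inside it (37090993) at 97.9% and 87.8%. The last inside it (37348852) was at 89.7% and 67.6%, and the next beyond (37354547) at 92.9% and 20%. Both of these inside CpGs lie in CCGG or TCGA. The nearest alpha CpGs outside the sites read 78.3% and 0 (37091048), and 51.3% and 2.94% (37348835). For the gamma array the last before (37813663) was at 93.8% and 29.4%, and the first inside (37815187) at 55.3% and 50%. The last inside (38002547) was at 81.8% and 71.4%, and the next beyond (38006758) at 92.9% and 89.7%. The first and last CpGs inside the gamma array also lie in such sites, and the first outside them (37815212) was at 12.1% and 0.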

How the data were processed

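The deposited table gave, for each CpG, the depth and the percent of methylation in each library. Depth is a count of usable methylation calls from the reads, which the authors had a sequencing provider process and map, and only CpGs with 10 or more calls in each library had been kept. The percent is methyl-cytosine over total cytosine, as deposited. Per the labels' processing notes the tool was Bismark and the build mm9; conversion rates and the enzymes used are not given in the sources used here, and replicates were not pooled, since each genotype is 1 library.

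Methylated calls were computed as depth times percent, which gave whole numbers. Each position was a CG of NCBIM37 and was moved by 1 base, because the table counts from 0. The annotation (GENCODE vM1) of this build holds 19 of the 36 variable exons. The other 17 were bounded by the only open reading frames of at least 2000 bases in the regions, and all 36 were named by matching their spacing to RefSeq genes (GRCm38.p6) within 1000 bases, with no coordinates converted. Constant exons are those shared by transcripts of at least 3 genes of an array. A stretch of 50 bases around a CpG that occurs more than once in the alpha, beta and gamma arrays after bisulfite conversion was called repeated (116 of 685 CpGs).

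Two-sided Fisher's exact tests over all CpGs, with Benjamini-Hochberg adjustment, compared the 2 libraries (numba 0.67.0, scipy 1.17.1), and were tested on simulated data. Named exons are, in each array, the 3 with the largest and smallest difference and the 3 with the highest and lowest Dnmt1-/- mean among exons with at least 5 CpGs, the C-type exons and the constant exons. Named CpGs are the 3 with the largest difference per array and direction. Others were named for completeness after their values were seen. The members, lists and rules were chosen with earlier results of these data known. Alternatives were CpGs in CCGG and TCGA included, a depth of at least 20, pooled calls, the deepest CpGs or repeated stretches left out, a shorter upstream window, other limits, and thinning to 10 calls.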

Additional observations from a re-analysis of the deposited data

How the results depend on the processing

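No paired analysis was possible because the Dnmt1+/+ and Dnmt1-/- MEFs gave a single library apiece. For the same reason no library could be left out, and the spread between cultures is unknown. With CpGs in CCGG and TCGA included, alpha means in Dnmt1+/+ and Dnmt1-/- MEFs became 65.8% and 19.7% for variable exons, 81.1% and 40.9% for constant exons, 21.3% and 11.8% upstream, and 82.7% and 40.02% between exons, with a variable minus constant difference of -21.2 points in Dnmt1-/- MEFs, retention of 36.7% and 1 CpG called higher. Gamma means became 73.2% and 49.5% for variable exons, 59.1% and 41.2% upstream, and 73.8% and 44.9% between exons, with retention of 66.9%. Alpha shares of low and high CpGs became 17.2% and 48.1% in Dnmt1+/+ and 60.1% and 5.52% in Dnmt1-/- MEFs, and gamma shares 11.7%, 57.6%, 21.6% and 15.6%.

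With a depth of at least 20 in both libraries, the alpha variable exons were at 57.7% in Dnmt1+/+ MEFs, the CpGs between alpha exons at 28.4% in Dnmt1-/- MEFs, alpha retention at 13.7% and the alpha share of high Dnmt1+/+ CpGs at 31.9%. The gamma variable exons were at 65.2% and 41.4%, and gamma retention at 62.3%. The alpha variable minus constant difference in Dnmt1-/- MEFs, -0.14 points, turned to 0.26 at this depth and to 1.87 with pooled calls, and rests on 3 constant exon CpGs. Pooled calls also gave 58.0% for alpha variable exons and 87.7% between alpha exons in Dnmt1+/+ MEFs, 67.2% for gamma variable exons in Dnmt1+/+ MEFs, 40.3% and 19.1% upstream in gamma, and 32.5% between gamma exons in Dnmt1-/- MEFs. Without repeated stretches the alpha variable exons were at 54.9% in Dnmt1+/+ MEFs, CpGs between alpha exons at 87.6% and 23.3%, alpha retention at 12.6%, gamma variable exons at 64.2% and 39.2%, and gamma retention at 59.7%. With annotated exons only, an alternative added after seeing the data, variable exons were at 56.9% in alpha in Dnmt1+/+ MEFs and at 55.3% and 37.3% in gamma. An upstream window of 500 bases gave 39.0% and 20.6% in gamma.

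Limits of 10% and 90% gave alpha shares of 17.5% low and 27.5% high in Dnmt1+/+ and 79.9% low in Dnmt1-/- MEFs, and gamma shares of 13.5%, 36.9%, 22.2% and 3.02%. Thinning to 10 calls, which lowers the power of the test by construction, left 87 alpha and 44 gamma CpGs lower and 2 gamma CpGs higher, and gave gamma shares of 57.7% high in Dnmt1+/+ and of 36.7% low and 17.9% high in Dnmt1-/- MEFs. Otherwise the cause of these shifts was not tested. Of the 31 exons with 5 or more CpGs, Pcdhgc4 remained the 1 exon higher in Dnmt1-/- MEFs, and no exon changed direction, with all CpGs, with pooled calls and without repeated stretches, and likewise in the 30 exons left at a depth of at least 20. Leaving out the deepest CpGs, an adjusted p under 0.01 and a difference of at least 25 points moved no value past its counting error and no count by over 1.5 times.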
